A study of Mus musculus with 18 samples.

Results

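The granins, other proteins of the secretory granule and the calcium sensor Scgn, 9 of the 17207 genes with a read, were followed through acute and chronic ER stress in MIN6 cells. They were taken by name: the granins Chga, Chgb, Scg2, Scg3 and Vgf, the granule membrane proteins Ptprn and Ptprn2, the peptide precursor Npy and the calcium sensor Scgn. Scgn is cytosolic and is counted among the granule genes by that choice. Counts and RPKM (reads scaled to transcript length and library total) of the RefSeq transcripts of each gene were added. All 9 had reads in all 18 libraries and were among the 7794 genes tested.

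MIN6 is a mouse insulinoma line, so every value is an average over one cultured tumour line and not over islet tissue. Cells stayed in DMSO for 18 h as the control, or were given 200 µM cyclopiazonic acid (CPA) for 1 h (CPA1, the acute phase) or 18 h (CPA18, the chronic phase). The control matches CPA18 in time and not CPA1. Each treatment has mRNA-seq of poly(A) RNA and Ribo-seq of ribosome footprints from 3 independent experiments, and the ratio of Ribo-seq RPKM to mRNA-seq RPKM is the ribosome occupancy, written ribo-ocp.

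β-cells store insulin in dense-core granules, which bud from the trans-Golgi network. Granins are acidic proteins that aggregate with calcium at the low pH of the Golgi lumen, help to pack the cargo and are cut into peptides by the same convertases that process proinsulin. They are made on the ER, whose calcium store is filled by the SERCA pump that CPA blocks.

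Several granin genes are known for a cAMP response element close to their start site. The promoters of the members other than Vgf, 8 in number, were taken from RefSeq for GRCm38.p6, as 250 bases before and 50 bases after the start, and were searched on both strands. No promoter of Vgf was among those searched, so the matches say nothing on the element in Vgf. Whether the element goes with the change of a gene under CPA was not tested. The full palindromic element TGACGTCA was found in Chgb and Scg2 and in 1.79% of 32851 promoters. Its core TGACGT, which lies inside the full element, was found in Chga as well and in 7.51% of promoters. The windows of Scg3, Ptprn, Ptprn2, Npy and Scgn held neither. The stretches from 110 to 31 bases before the start are shown for these 3 granins, 5′ to 3′ on the coding strand, because they hold the element. Capitals mark the element, which begins 44 bases before the start in Chga, 72 in Chgb and 68 in Scg2. The positions are chr12:102554831-102554910 on the plus strand, chr2:132781532-132781611 on the plus strand and chr1:79440057-79440136 on the minus strand.
Chga: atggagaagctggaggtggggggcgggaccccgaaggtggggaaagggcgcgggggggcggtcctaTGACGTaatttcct
Chgb: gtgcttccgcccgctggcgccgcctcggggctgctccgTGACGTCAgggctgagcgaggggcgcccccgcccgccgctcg
Scg2: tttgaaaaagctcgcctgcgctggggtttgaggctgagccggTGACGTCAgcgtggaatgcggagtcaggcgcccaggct
The ATF4 and CHOP element TGATGCAA, present in 0.895% of promoters, and the ER stress element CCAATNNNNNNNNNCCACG, present in 0.119%, had no match in the 8 members. A match is a run of letters, and binding was not measured.

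Total counts ranged from 520960 to 4755030 in mRNA-seq and from 168129 to 1083297 in Ribo-seq. Of the 9 β-cell markers all had reads in every library. Gcg of the α-cell was seen at 21.7 to 127 RPKM in mRNA-seq and 88.6 to 235 RPKM in Ribo-seq, the summed markers of δ-cells reached 10.2 and those of PP and ε-cells 19.7 RPKM, whereas those of exocrine, fibroblast, endothelial and immune cells reached at most 4.29 RPKM in any library. The titles and descriptions of the 2 control libraries of experiment 2 name different assays, and they were placed by their titles, which the table headers share. Reads on Lars2 took 4.75% to 54.8% of mRNA-seq and 0.0830% to 3.51% of Ribo-seq counts, and 7.19% and 0.0830% in these 2 libraries as titled. The mRNA-seq libraries of experiment 1 (45.1%, 53.5% and 54.8% in control, CPA1 and CPA18) and that of CPA1 in experiment 2 (38.1%) stood apart from the others, which had at most 15.1%. Reads on Ins1 and Ins2 fell from 15.0% ± 7.5 to 3.81% ± 2.06 of mRNA-seq counts and from 19.4% ± 1.6 to 6.41% ± 0.89 of Ribo-seq counts between control and CPA18 (SD, n = 3). With counts scaled to the library total, the median gene was 0.36 (mRNA-seq) and 0.39 (Ribo-seq) higher on the log2 scale in CPA18 than in control, and 0.17 and 0.18 higher once the totals excluded Ins1 and Ins2. At 1 h the median gene in mRNA-seq was -0.12, and 0.07 once they excluded Lars2 as well.

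In control cells the granule genes lay between rank 4 (Chga footprints) and rank 4563 (Vgf mRNA) of all genes. By RPKM, which allows levels of different genes to be compared, the order in mRNA-seq was Chga (6323 ± 2309), Npy (4981 ± 2717), Scg2 (1120 ± 499), Ptprn (325 ± 144), Chgb (254 ± 114), Scgn (209 ± 68.2), Ptprn2 (128 ± 37.7), Scg3 (87.7 ± 38.4) and Vgf (13.5 ± 7.75) (SD, n = 3). Chga held rank 5 or 6 and Npy rank 7 to 9 among all genes. The ranges of neighbours in this order overlapped, except that all Npy values lay above all Scg2 values, all Scg2 above all Ptprn and all Scg3 above all Vgf values. Within each experiment Chga was also above Npy, and Ptprn2 above Scg3. In Ribo-seq the order was Chga (12067 ± 1615), Scg2 (5833 ± 419), Npy (4819 ± 722), Chgb (1144 ± 180), Scg3 (442 ± 109), Ptprn (284 ± 63.5), Ptprn2 (199.8 ± 5.96), Scgn (170.0 ± 16.2) and Vgf (22.4 ± 11.8), and no neighbours overlapped. Chga held rank 4 in each of the control Ribo-seq libraries. In CPA18 footprints Npy (2108 ± 343) stood above Scg2 (1559 ± 56.0), and Ptprn (326 ± 38.7) above Scg3 (197 ± 27.8), in every library. Together the 9 genes took 2.09% ± 0.48 of mRNA-seq counts in control, 1.78% ± 0.71 in CPA1 and 0.993% ± 0.389 in CPA18. Their share of footprints was 4.74% ± 0.47, 3.93% ± 0.26 and 2.02% ± 0.33.

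**Figure D1:**
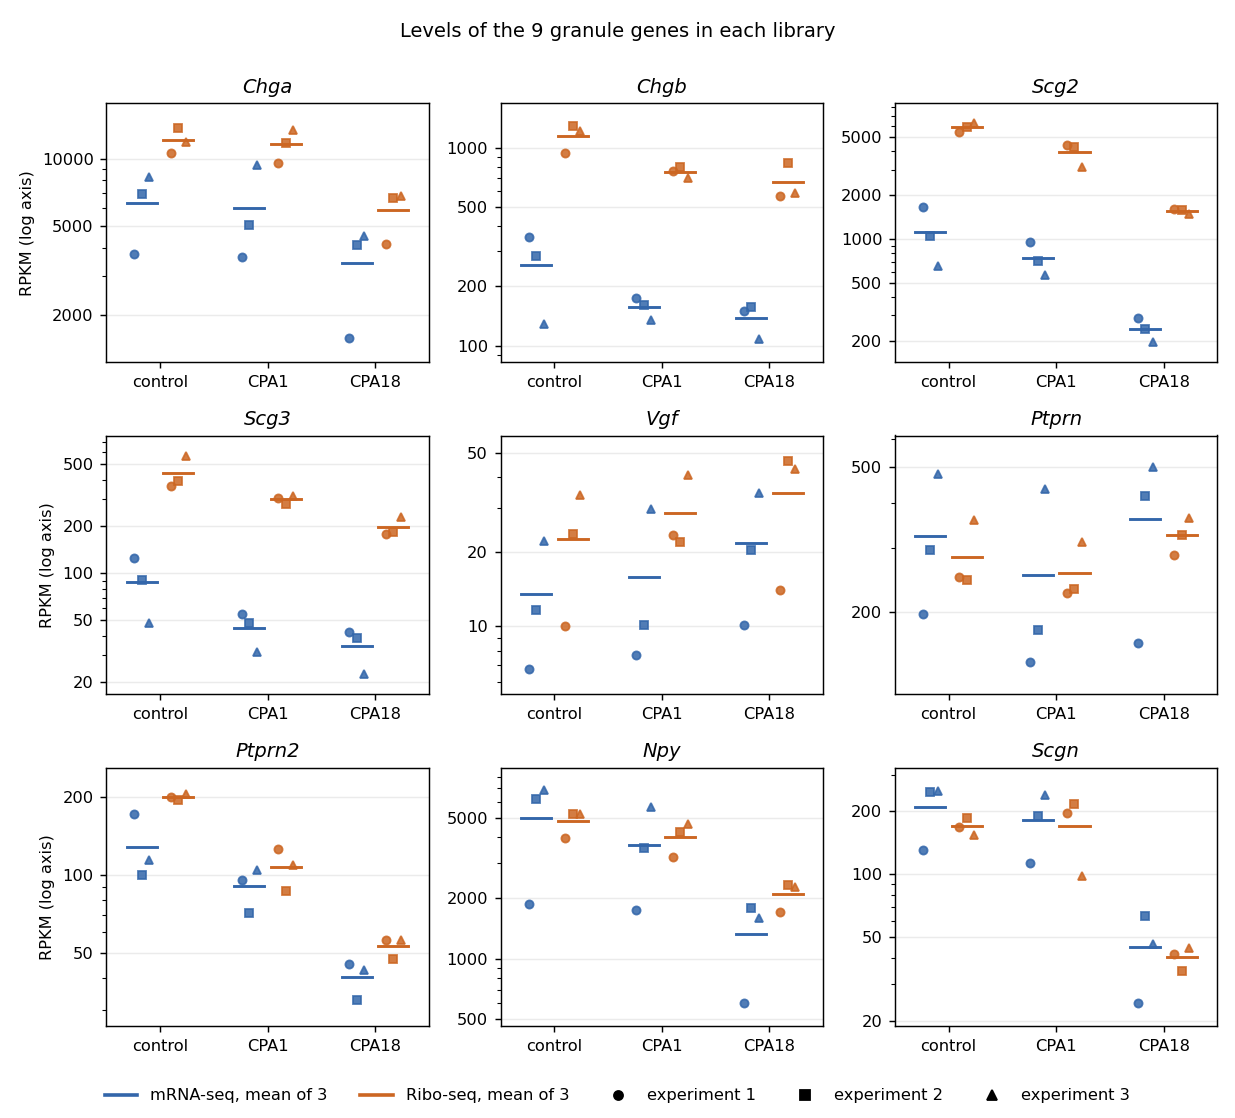
RPKM of each granule gene on a log axis in control, CPA1 and CPA18, with mRNA-seq in blue and Ribo-seq in orange. Symbols are experiments and bars are means of 3. Footprints of 7 genes are lower in all CPA18 libraries than in any control library, whereas those of Vgf and Ptprn overlap.

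Chronic stress lowered 7 of the 9 granule genes, in mRNA and in footprints alike: Chga, Chgb, Scg2, Scg3, Ptprn2, Npy and Scgn. Vgf and Ptprn passed the test in neither assay. Counts were compared by edgeR's quasi-likelihood test with the experiment as a block and Benjamini-Hochberg adjustment over all genes, and an adjusted p under 0.05 was called. Of all genes tested, 7.69% fell and 25.9% rose in mRNA-seq, and 6.35% fell and 24.6% rose in Ribo-seq. The median log2 fold change of the 9 members reached -1.29 (mRNA-seq) and -1.15 (Ribo-seq), against 0.36 and 0.39 over all genes. All 3 CPA18 values lay below all 3 control values for 5 members in mRNA-seq (Scg2, Scg3, Ptprn2, Npy and Scgn) and for 7 in Ribo-seq, against 5.34% and 8.99% of all genes. Fewer cells with a transcript and less of it per cell cannot be told apart in bulk libraries.

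The mRNA-seq calls rest on comparing treatments within experiments. Without the replicate block, 1 of the 7 members (Scgn) kept its mRNA-seq call, while all 7 kept it in Ribo-seq. All 7 also fell in both assays when Ins1 and Ins2, or these and Lars2, were taken out of the library totals. Had the assays of the control libraries of experiment 2 been exchanged, 7 members would have been called in mRNA-seq and 3 in Ribo-seq (Ptprn2, Npy and Scgn).

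**Figure D2:**
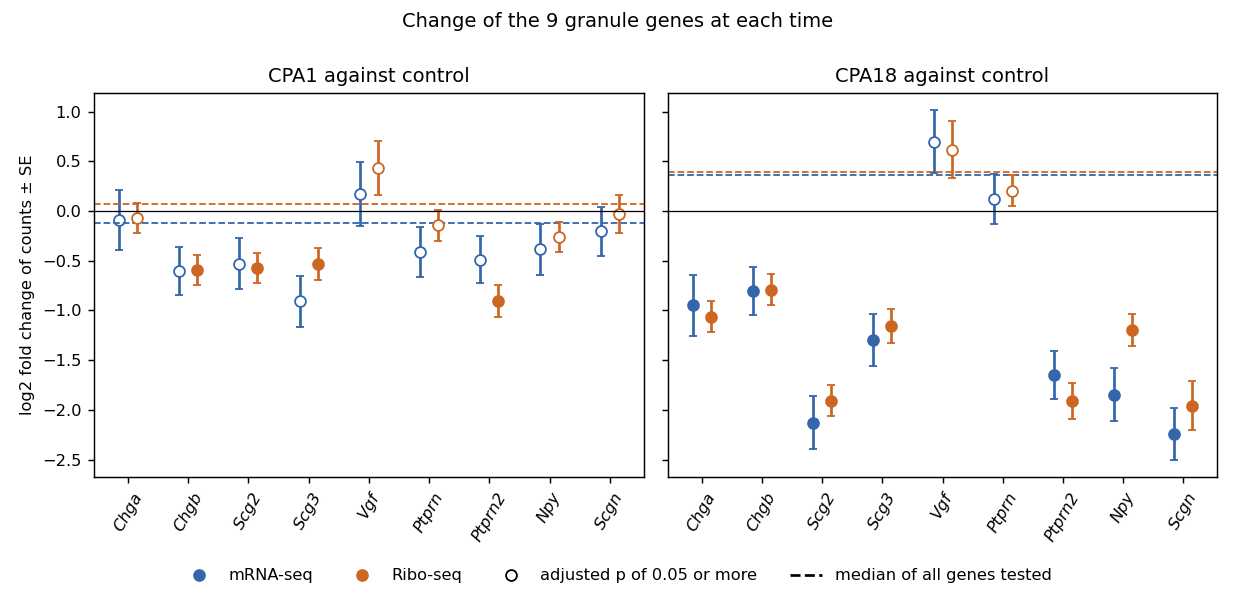
Log2 fold change (± SE, from the counts) of each granule gene against control after 1 h (left) and 18 h (right). Filled circles have an adjusted p under 0.05, and dashed lines give the median of all genes tested. At 18 h, 7 genes lie between -2.24 and -0.79 in both assays, and Vgf and Ptprn lie above 0 with open circles.

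The acute phase showed a smaller change, which edgeR called in footprints and not in mRNA. After 1 h, 4 of the 9 members had fallen in Ribo-seq, against 2.78% of all genes: Chgb, Scg2, Scg3 and Ptprn2. In mRNA-seq edgeR called 0 of 9, against 0.719% of all genes in either direction. There the log2 fold changes of Chgb, Scg2, Scg3 and Ptprn2 were -0.60 ± 0.24, -0.53 ± 0.26, -0.91 ± 0.26 and -0.49 ± 0.24 (SE). In footprints they were -0.59 ± 0.15, -0.57 ± 0.15, -0.54 ± 0.16 and -0.91 ± 0.16, so the SE was smaller. These 4 members had an unadjusted p under 0.05 in mRNA-seq, all with lower values, beside 486 of 7794 genes in either direction. DESeq2 and limma called 1 (Scg3) and 0 there. The 4 Ribo-seq calls fell to 1 (Ptprn2) without the replicate block, without experiment 2 or without experiment 3, and to 0 with the exchanged control libraries. From CPA1 to CPA18, 5 members fell further in mRNA-seq (Chga, Scg2, Ptprn2, Npy and Scgn), against 5.54% of all genes, and 6 in Ribo-seq (the same 5 and Scg3), against 5.52%. The mRNA-seq call of Chga was lost without experiment 1 (adjusted p = 0.374) or experiment 3 (0.191). The median log2 fold change of the 9 members at 1 h was -0.41 (mRNA-seq) and -0.26 (Ribo-seq), beside -0.12 and 0.07 over all genes, and from CPA1 to CPA18 it was -0.86 and -0.94, beside 0.48 and 0.31. Without the block the counts from CPA1 to CPA18 were 0 and 6, and with the exchanged controls 4 and 1.

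By these tests the footprints of the 7 genes took different courses. Chgb fell within 1 h and did not pass the test afterwards. Scg2, Scg3 and Ptprn2 fell within 1 h and again between 1 h and 18 h, the second step being -1.33 ± 0.15 (adjusted p = 3.21e-15), -0.62 ± 0.17 (adjusted p = 0.00366) and -1.01 ± 0.19 (adjusted p = 1.84e-06). That of Scg3 did not pass without experiment 1 (adjusted p = 0.0887). Chga, Npy and Scgn had log2 fold changes of -0.07, -0.26 and -0.03 at 1 h, which did not pass, and fell between 1 h and 18 h, by 1.00, 0.94 and 1.93. Differences between genes in these courses were not tested, and the comparisons share libraries: both CPA groups were set against the same control, and CPA1 enters 2 of the 3 comparisons. With TMM scaling, which sets the typical gene near 0, Chgb also fell in the second interval, so that 7 members did in both assays.

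Chga (gene ID 12652, chr12:102554941-102565027) encodes chromogranin A, the precursor of vasostatin and pancreastatin, and was the most abundant member throughout. In mRNA-seq it stood at 3761, 6963 and 8244 RPKM in control, 3644, 5074 and 9419 in CPA1, and 1583, 4115 and 4513 in CPA18 (experiments 1, 2 and 3). It was lower in CPA18 than in control in each experiment, but the groups overlapped because experiment 1 was low in all treatments. Footprints were 10575, 13782 and 11844 RPKM in control, 9607, 11709 and 13417 in CPA1, and 4176, 6655 and 6803 in CPA18, so that all CPA18 values lay below the others. The log2 fold change from control to CPA18 was -0.95 ± 0.31 (SE, adjusted p = 0.0118) in mRNA-seq and -1.06 ± 0.15 (adjusted p = 4.65e-10) in Ribo-seq. The mRNA-seq call was lost without experiment 1 (adjusted p = 0.297), without experiment 3 (0.107) and without the control mRNA-seq library of experiment 2 (0.105), the fold change staying between -0.81 and -0.98.

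Chgb (12653, chr2:132781642-132795079), chromogranin B, is another soluble granin of the granule core. Its mRNA-seq RPKM was 351, 283 and 129 in control, 175, 161 and 134 in CPA1, and 149, 157 and 108 in CPA18. Experiment 3 was already low in control, and the groups overlapped. Its footprints were 940.2, 1283 and 1209 RPKM in control, 765, 794 and 699 in CPA1, and 571, 839 and 588 in CPA18, both CPA groups lying below control. Chgb footprints fell by 0.59 ± 0.15 on the log2 scale in 1 h (adjusted p = 0.00359) and stood 0.79 ± 0.15 below control at 18 h (adjusted p = 6.99e-06), the step between the 2 times being -0.20 ± 0.16 (adjusted p = 0.388). The mRNA fell by 0.80 ± 0.24 at 18 h (adjusted p = 0.00677), a call lost without experiment 1 (0.187) and without the control mRNA-seq library of experiment 2 (0.0979). With TMM scaling the step from CPA1 to CPA18 passed the test in both assays, with log2 values of -0.72 and -0.51.

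Scg2 (20254, chr1:79434366-79440026) encodes secretogranin II, from which secretoneurin is cut. Its mRNA-seq RPKM was 1651, 1049 and 659 in control, 963, 706 and 572 in CPA1, and 288, 244 and 197 in CPA18. Its footprints were 5395, 5875 and 6230 RPKM in control, 4446, 4281 and 3132 in CPA1, and 1602, 1579.7 and 1496 in CPA18. The CPA18 groups lay far below the others in both assays, and the footprint values of the 3 CPA18 libraries were close to each other. Scg2 was 4.37-fold lower in mRNA-seq (log2 -2.13 ± 0.27, adjusted p = 1.35e-10) and 3.75-fold lower in Ribo-seq (-1.91 ± 0.16, adjusted p = 2.30e-28), the largest fall among the granins in both. In the acute phase footprints fell by 0.57 ± 0.15 (adjusted p = 0.00501).

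Scg3 (20255, chr9:75643366-75685959), secretogranin III, binds chromogranin A and cholesterol-rich granule membrane. Its mRNA-seq RPKM was 124.8, 90.1 and 48.1 in control, 54.6, 48.1 and 31.2 in CPA1, and 42.1, 38.4 and 22.8 in CPA18. Its footprints were 366, 392 and 567 RPKM in control, 304, 279 and 316 in CPA1, and 179, 184 and 229 in CPA18, with no overlap between treatments. From control to CPA18 the log2 fold change was -1.29 ± 0.26 (adjusted p = 5.14e-05) in mRNA-seq and -1.15 ± 0.17 (adjusted p = 1.18e-09) in Ribo-seq. At 1 h the mRNA value was -0.91 ± 0.26 (adjusted p = 0.0787), which passed the test with DESeq2 (0.0151) and without Ins1 and Ins2 in the totals (0.0441). Footprints at 1 h gave -0.54 ± 0.16 (adjusted p = 0.0186), but 0.113 with limma.

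Vgf (381677, chr5:137025301-137033351) is a nerve growth factor-inducible granin and the source of several secreted peptides. It was the least abundant member, with 9 to 246 reads per mRNA-seq and 6 to 93 per Ribo-seq library. Its mRNA-seq RPKM was 6.77, 11.7 and 22.0 in control, 7.64, 10.1 and 29.6 in CPA1, and 10.1, 20.3 and 34.4 in CPA18. Footprints were 10.0, 23.6 and 33.6 RPKM in control, 23.4, 21.9 and 40.8 in CPA1, and 13.99, 46.3 and 43.1 in CPA18. The spread between experiments exceeded that between treatments, and the groups overlapped. Within each experiment CPA18 was above control in both assays, by 0.70 ± 0.31 on the log2 scale in mRNA-seq (adjusted p = 0.0733) and 0.62 ± 0.29 in Ribo-seq (adjusted p = 0.0886). Relative to the median gene these differences were 0.34 and 0.23. After a correction for GC and transcript length the mRNA-seq value was 0.87 (adjusted p = 0.0225), and with TMM scaling it was 0.23 (0.418).

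Ptprn (19275, chr1:75247035-75264497) and Ptprn2 (19276, chr12:116485695-117278167) encode IA-2 and phogrin, paralogous receptor-type tyrosine phosphatase proteins that span the granule membrane and are autoantigens of type 1 diabetes. They parted under chronic stress. Ptprn2 mRNA-seq RPKM was 171, 100.0 and 114 in control, 95.3, 70.9 and 105 in CPA1, and 45.2, 32.8 and 43.1 in CPA18. Ptprn2 footprints were 200.1, 194 and 206 RPKM in control, 126, 86.9 and 109 in CPA1, and 55.9, 47.3 and 55.9 in CPA18, with no overlap between treatments. Ptprn2 was 3.14-fold lower in mRNA-seq at 18 h (log2 -1.65 ± 0.24, adjusted p = 3.48e-08) and 3.77-fold lower in Ribo-seq (-1.91 ± 0.18, adjusted p = 9.59e-22). Its footprints had fallen by 0.91 ± 0.16 after 1 h (adjusted p = 3.58e-06), the largest acute change in footprints among the members and the 1 call in footprints that held without the block.

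Ptprn mRNA-seq RPKM was 198, 296 and 480.3 in control, 146, 179 and 437 in CPA1, and 165, 417 and 501 in CPA18. Its footprints were 249.96, 246 and 358 RPKM in control, 225, 232 and 312 in CPA1, and 287, 326 and 364 in CPA18. All groups overlapped. The log2 difference between CPA18 and control was 0.12 ± 0.25 (adjusted p = 0.737) in mRNA-seq and 0.21 ± 0.16 (adjusted p = 0.337) in Ribo-seq, and turned to -0.28 and -0.16 with TMM scaling, so no direction is given for Ptprn. Relative to the median gene it stood at -0.24 and -0.18.

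The ratio of Ptprn2 to Ptprn within a library does not depend on scaling. In mRNA-seq it was 0.866, 0.338 and 0.238 in control, 0.654, 0.397 and 0.240 in CPA1, and 0.274, 0.0788 and 0.0860 in CPA18. In footprints it was 0.800, 0.788 and 0.575 in control, 0.560, 0.374 and 0.350 in CPA1, and 0.195, 0.145 and 0.153 in CPA18. The ratio was lower in CPA18 than in control in 3 of 3 experiments in both assays, with mean log2 differences of -1.74 in mRNA-seq and -2.13 in Ribo-seq. The groups overlapped in mRNA-seq, where experiment 1 of CPA18 lay above experiment 3 of control, and did not in Ribo-seq. At 1 h the mean log2 difference was -0.77 in Ribo-seq and -0.05 in mRNA-seq. This ratio was chosen after the values were seen and is given with no test.

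**Figure D3:**
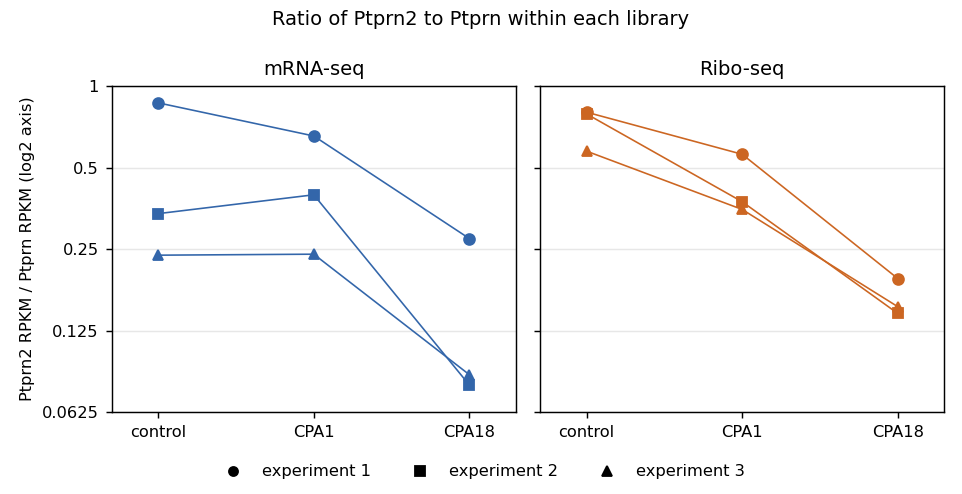
RPKM of Ptprn2 divided by RPKM of Ptprn in each library, on a log2 axis, for mRNA-seq (left) and Ribo-seq (right). Lines join the treatments of an experiment. All 3 lines end lower in CPA18, at 0.0788 to 0.274 in mRNA-seq and 0.145 to 0.195 in Ribo-seq.

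Npy (109648, chr6:49822710-49829507), the precursor of neuropeptide Y, a peptide that inhibits insulin release, was abundant in these cells. Its mRNA-seq RPKM was 1863, 6237 and 6843 in control, 1743, 3530.3 and 5696 in CPA1, and 601, 1784 and 1585 in CPA18. Experiment 1 was low in every treatment, and CPA18 still lay below all control libraries. Footprints were 3986, 5234 and 5238 RPKM in control, 3183, 4255 and 4686 in CPA1, and 1714, 2335 and 2276 in CPA18. Npy mRNA was 3.60-fold lower at 18 h (log2 -1.85 ± 0.27, adjusted p = 1.59e-08) and its footprints 2.29-fold lower (-1.20 ± 0.16, adjusted p = 4.40e-12).

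Scgn (214189, chr13:23953456-23991327) encodes secretagogin, a cytosolic EF-hand calcium sensor of neuroendocrine cells. Its mRNA-seq RPKM was 131, 247 and 251 in control, 113, 190.2 and 241 in CPA1, and 24.3, 63.5 and 46.4 in CPA18. Footprints were 169, 186 and 154 RPKM in control, 197, 218 and 98.4 in CPA1, and 41.8, 34.6 and 44.4 in CPA18. The CPA18 groups were below all others, and in CPA1 experiment 3 went down in footprints while experiments 1 and 2 went up. Scgn was the member that fell most in mRNA-seq, 4.72-fold (log2 -2.24 ± 0.26, adjusted p = 8.14e-12), and it fell 3.89-fold in Ribo-seq (-1.96 ± 0.25, adjusted p = 4.82e-13). These CPA18 footprint values rest on 10, 10 and 35 reads.

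Relative to the median gene, which takes out the shift of the typical gene, the 7 called members stood between -2.60 (Scgn) and -1.17 (Chgb) in mRNA-seq and between -2.35 (Scgn) and -1.18 (Chgb) in Ribo-seq. Scg2 stood at -2.49 and -2.30, Npy at -2.21 and -1.59, and Ptprn2 at -2.01 and -2.30. The 7 genes kept a negative sign in all 17 alternative settings in both assays.

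**Figure D4:**
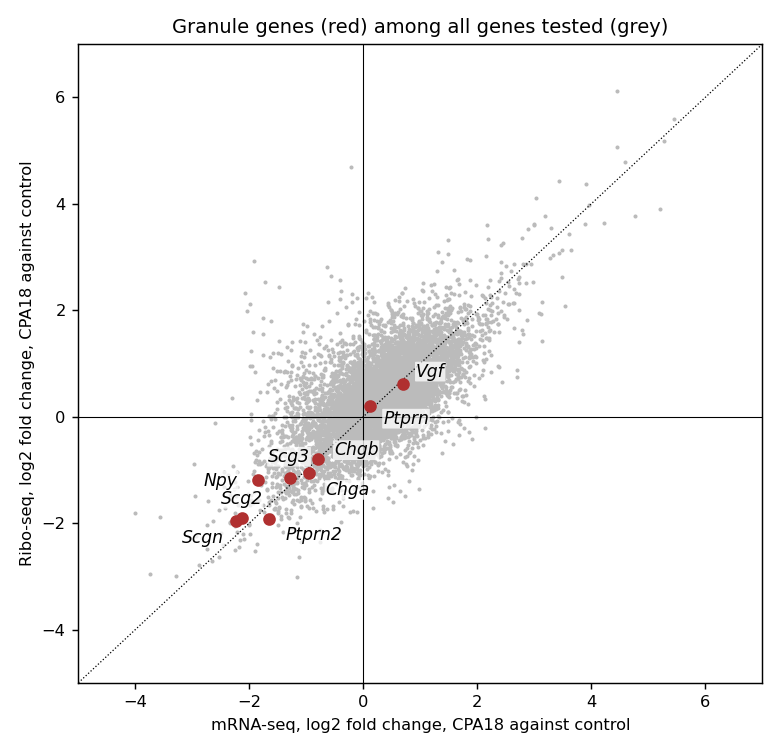
Log2 fold change of counts from control to CPA18 in mRNA-seq (horizontal) and Ribo-seq (vertical) for the 7794 genes tested, with the granule genes in red. The dotted line marks equal change. The 7 genes that fell lie in the lower left near this line, and Npy lies above it (-1.85 against -1.20).

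Ribosome occupancy relates footprints to mRNA. In control the geometric mean of ribo-ocp was 5.57 for Scg2, 5.32 for Scg3 and 4.85 for Chgb, 2.00 for Chga, 1.66 for Vgf, 1.598 for Ptprn2, 1.11 for Npy, 0.922 for Ptprn and 0.844 for Scgn. Scg2, Scg3 and Chgb thus had the highest means, and each stood above 83.4% of genes tested in each control experiment. Their values differed widely between experiments, from 3.27 to 9.45 for Scg2, from 2.93 to 11.8 for Scg3 and from 2.68 to 9.37 for Chgb.

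No member changed its ribo-ocp past the threshold. As an interaction of assay and treatment, edgeR called 0 of 9 for CPA1 against control, CPA18 against control and CPA18 against CPA1, while it called 0.0898%, 0.462% and 0.077% of all genes. Of the 9, 0, 1 and 0 had an unadjusted p under 0.05 (548, 702 and 443 of 7794 genes did), and DESeq2 and limma called none. The 1 gene was Npy. Its ribo-ocp was 2.14, 0.839 and 0.765 in control and 2.85, 1.31 and 1.44 in CPA18, higher in 3 of 3 experiments by 0.41, 0.64 and 0.91 on the log2 scale. The fitted difference was 0.65 ± 0.29 (adjusted p = 0.471), and the adjusted p ranged from 0.201 to 1.00 over the alternatives. For the other members the mean log2 change of ribo-ocp from control to CPA18 lay between -0.27 ± 0.31 (Ptprn2) and 0.22 ± 0.54 (Scg2) (SD, n = 3), and the median of all genes changed by 0.05 ± 0.40.

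**Figure D5:**
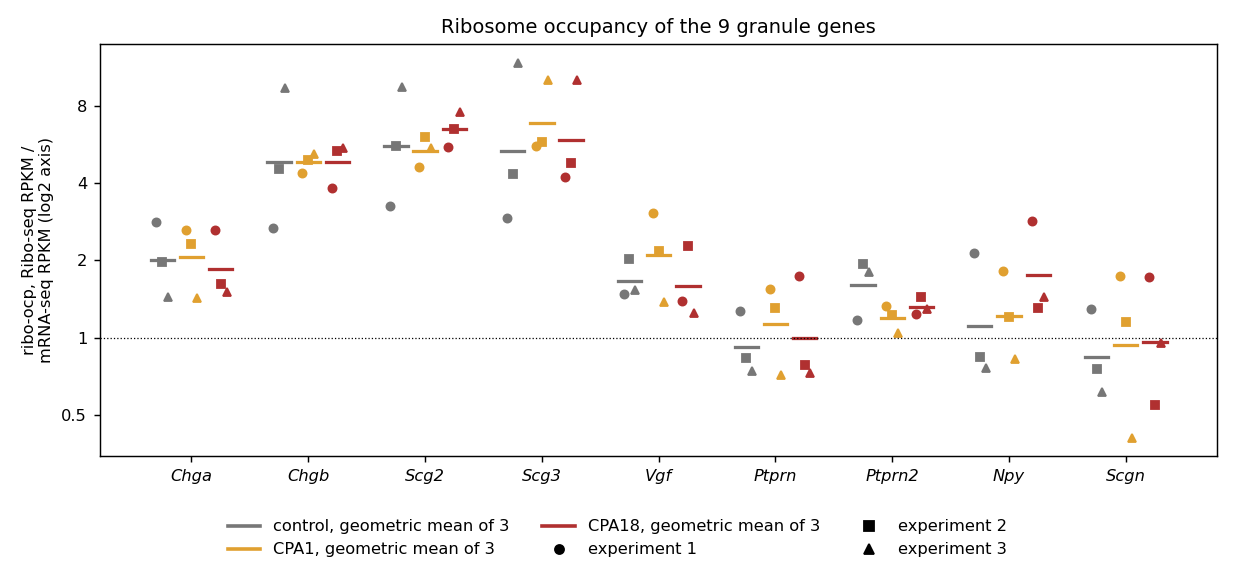
Ribo-ocp (Ribo-seq RPKM over mRNA-seq RPKM, log2 axis) of each granule gene in control (grey), CPA1 (yellow) and CPA18 (red). Symbols are experiments and bars are geometric means of 3. Chgb, Scg2 and Scg3 are the highest, at 4.85, 5.57 and 5.32 in control, and the treatments overlap for every gene.

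The experiments themselves differed in mRNA-seq. From experiment 1 to experiment 3 of control, Npy, Vgf, Ptprn, Chga and Scgn stood higher by 1.88, 1.70, 1.28, 1.13 and 0.94 on the log2 scale, and Chgb, Scg3, Scg2 and Ptprn2 lower, at -1.45, -1.37, -1.32 and -0.58. Over 7786 genes this difference went with the GC content of the transcripts (Pearson r = 0.611, Spearman rho = 0.624, across genes of 2 libraries), and in Ribo-seq it hardly did (r = 0.0733). Transcript GC was 64.8% for Vgf, 59.1% for Ptprn, 58.2% for Chga and 53.7% for Npy, which were higher in experiment 3, and 44.8% for Scg2 and 47.2% for Scg3, which were lower, with a median of 50.6% over genes. The other members did not follow this order: Chgb (52.3%) and Ptprn2 (53.1%) lay above the median GC and were lower in experiment 3, and Scgn (48.0%) lay below it and was higher. In Ribo-seq the same difference was at most 0.63 in size for the members other than Vgf (1.75). The part of GC content in the members' levels was not tested. After the correction for GC and length the 7 genes were called as before in both assays, and Vgf was added in mRNA-seq.

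Other genes of dense-core granules, and of their formation and release, changed in both directions. Of a list of 21, 20 were tested. Rph3al, which acts in granule exocytosis, was left out by the filter because its CPA18 footprints had reads in 1 of 3 libraries. In mRNA-seq it stood at 7.87, 16.0 and 14.1 RPKM in control and 1.89, 2.31 and 4.30 in CPA18, lower in each experiment. In chronic stress 6 fell and 3 rose in mRNA-seq, and 9 fell and 2 rose in Ribo-seq, with median log2 fold changes of -0.44 and -0.47. Over all genes 7.69% fell and 25.9% rose in mRNA-seq, and 6.35% fell and 24.6% rose in Ribo-seq, so the share of the list that rose lay below that of all genes. In acute stress edgeR called 0 in mRNA-seq, against 0.719% of all genes. An unadjusted p under 0.05 was seen there for 2 of the 20, beside 486 of 7794 genes. In Ribo-seq 3 fell, against 2.78% of all genes. These were the processing enzymes Cpe (-0.46 ± 0.15) and Pam (-0.86 ± 0.27) and the proton pump subunit Atp6ap1 (-0.47 ± 0.16), named after their values were seen. Without the replicate block these 3 calls were lost (adjusted p = 0.161, 0.0819 and 0.194). The largest falls in mRNA-seq among the 20 genes tested were those of Syt7, a calcium sensor of exocytosis (-1.84 ± 0.34, adjusted p = 7.73e-06), and of the prohormone convertases Pcsk2 (-1.56 ± 0.26, adjusted p = 1.16e-06) and Pcsk1 (-1.48 ± 0.31, adjusted p = 7.88e-05). The genes that rose were Hid1, which acts in granule formation at the Golgi (1.59 ± 0.25, adjusted p = 3.05e-07), Ica1 (1.27 ± 0.37, adjusted p = 0.00479) and the vesicle SNARE Vamp2 (0.64 ± 0.24, adjusted p = 0.0311). Footprints of Pcsk2, Pcsk1, Syt7 and Hid1 changed the same way past the test (-1.59, -1.69, -1.15 and 1.13), and those of Ica1 (0.75) and Vamp2 (0.45) did not pass. The other gene that rose in footprints was Ccdc186 (1.19 ± 0.37, adjusted p = 0.00839), which is named after its values were seen. Its footprints were higher in CPA18 in experiments 1 and 3 and lower in experiment 2 (4.003 RPKM in control and 3.05 in CPA18), and the groups overlapped. Without the replicate block the 9 mRNA-seq calls fell to 1 (Syt7), and with TMM scaling they rose to 15. The call of Vamp2 was also lost with TMM scaling.

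The mean profile of the 5 granins, centred within each experiment and assay, was compared with 4917 genes of at least 5 RPKM over the 18 libraries. The 5 highest Pearson r belonged to Lamp2, a lysosomal membrane protein (0.971), Slc44a3 (0.963), Scg2 itself (0.959), Pcsk1 (0.957) and Ptprn2 (0.957). Scg3 (0.949) came next, Chga, Npy, Chgb and Scgn ranked 34 to 66, and the r of Ptprn (-0.19) and Vgf (-0.47) was below 0. The profile contains the granins, and the libraries share depth and experiment, so these values describe these libraries. Leaving out an experiment kept the r of the 5 genes between 0.931 and 0.983 while changing which genes were the highest.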

How the data were processed

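Reads were filtered by quality and length and mapped by the authors with Bowtie2 onto mouse transcripts (GRCm38). They deposited raw counts per transcript and the RPKM derived from the count, library total and transcript length. All but 31 of 30741 transcripts could be assigned to genes with RefSeq (GRCm38.p6), the source of all sequences and positions, and were summed per gene. Genes with a read in every library (7794) entered edgeR 4.0.16 (R 4.3.3), a quasi-likelihood test of the counts scaled to library totals and blocked by experiment, because the labels number 3 independent replications. Libraries of an experiment deviated together in mRNA-seq (r 0.113 to 0.757) and weakly in Ribo-seq (0.0830 to 0.187). Levels and ratios rest on RPKM. Other scalings, filters, transcript choices and left-out libraries, no block, limma 3.58.1 and DESeq2 1.42.0 were tried, and, added after seeing the data, an offset for GC and length (splines, 4 df). The fits were tested on simulated data. Members and lists were chosen with earlier results of these data known. Named are all 9 members, up to 3 changed genes of the granule list in each direction by mRNA-seq, and the 5 most similar genes. Read counts carry no molecular identifiers. Python 3.11.15, pandas 2.3.3, scipy 1.17.1 and matplotlib 3.10.9 were used.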

Additional observations from a re-analysis of the deposited data

How the results depend on the processing

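Over 17 alternatives, 143 counts of called members stayed within 1.5 times of the reported ones and 10 did not. Without the replicate block, in unpaired fits, mRNA-seq calls went from 7 to 1 (CPA18 against control) and from 5 to 0 (CPA18 against CPA1), and Ribo-seq calls at 1 h from 4 to 1. With the exchanged control libraries of experiment 2, Ribo-seq calls were 0 (CPA1 against control), 3 (CPA18 against control) and 1 (CPA18 against CPA1). DESeq2, and totals without Ins1 and Ins2, each called 1 in mRNA-seq at 1 h. Leaving out an experiment or the doubted control library of mRNA-seq gave 1 to 4 calls in Ribo-seq at 1 h. That control library does not enter the Ribo-seq fits, so leaving it out could not change any Ribo-seq call or fold change and does not test them. The totals of unchanged values here and below include these. The causes of the changes were not tested.

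Of the members' fold changes, 835 kept direction and side of the threshold, 43 lost and 14 gained a call, and 26 changed sign, none of them for the 7 called genes at 18 h against control. In mRNA-seq at 1 h, Chga turned to 0.036 (TMM) and 0.12 (totals without Ins1, Ins2 and Lars2) and ran from -0.23 to 0.070 over the left-out experiments, and Vgf turned to -0.22 (exchanged controls) and ran from -0.027 to 0.35. At 18 h, Ptprn mRNA turned to -0.28 (TMM), -0.24 (DESeq2), -0.063 (without Ins1 and Ins2) and -0.095 (also without Lars2) and ran from -0.093 to 0.30, and its footprints turned to -0.16, -0.14 and -0.0082 under the first 3. From CPA1 to CPA18, Vgf mRNA was -0.010 with TMM, and its footprints were -0.13 (TMM), -0.12 (DESeq2), -0.014 (without Ins1 and Ins2) and -0.00097 (also without Lars2) and ran from -0.22 to 0.47. In Ribo-seq at 1 h, Chga ran from -0.19 to 0.014 and Scgn from -0.18 to 0.22, Scgn was 0.0081 with no block and 0.11 with the GC and length offset, and with exchanged controls Chga was 0.23, Scg2 0.069 and Scg3 0.036.

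TMM moved the median gene at 18 h from 0.36 to -0.08 in mRNA-seq and from 0.39 to 0.03 in Ribo-seq. By library total 2018 genes rose and 599 fell in mRNA-seq, against 1048 and 1404 with TMM, and 1914 and 495 against 886 and 950 in Ribo-seq. Without the block 154 genes were called in mRNA-seq at 18 h, against 2617 with it. Vgf (6 reads at the lowest) and Scgn footprints (10) are limited by depth.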
